A study of Xenopus tropicalis with 12 samples.

Results

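A set of 65 genes, of 19921 in the deposited counts, fell in the intestine of wild-type Xenopus tropicalis tadpoles between stage 54 and stage 61 and did not fall in tadpoles without thyroid hormone receptors, where 61 of them rose. The wild-type falls depend on how libraries were scaled. With counts divided by library totals alone, 19 of the 65 were higher in wild type at stage 61. Stage 54 is premetamorphic and stage 61 is the climax of metamorphosis. The animals were wild type, TRα (+/+) TRβ (+/+), or TR double knockout (TRDKO), TRα (−/−) TRβ (−/−), and 3 poly-A RNA libraries of whole intestine were sequenced for each genotype at each stage, 12 in all. The TRDKO tadpoles came from parents that lacked TRα and carried 1 mutant copy of TRβ, and the study used lines with different out-of-frame deletions in TRβ. Neither the labels nor the sequencing methods say which line was sequenced or whether animals were pooled for a library, while tissue from several animals was pooled for the RNA that the study measured by qPCR.

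The genes were chosen from their own levels. Counts were divided by median-of-ratios size factors and averaged over the 3 libraries of a group. These factors set the median gene, among genes with a count in all 12 libraries, to the same level. A gene was a member if its mean normalised count was at least 50 in wild-type tadpoles at stage 54, if it was 2-fold or more lower in wild-type tadpoles at stage 61, and if the TRDKO mean at stage 61 was at least 2 times the TRDKO mean at stage 54. All 4 group means therefore entered the choice, and the values below describe the members without testing them. Of 10277 genes at 50 or more, 2889 fell 2-fold or more in wild-type tadpoles and 500 met the TRDKO condition. The 65 members were 2.25% of the falling genes and 13% of the genes that met the TRDKO condition. Most of the falling genes, 2004, stayed within 2-fold between the stages in TRDKO tadpoles, and 823 fell 2-fold or more there as well.

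Thyroid hormone (T3) acts through its nuclear receptors TRα and TRβ, which bind target genes with and without hormone. Without T3 the receptors recruit corepressors and hold T3-inducible genes down, and with T3 they recruit coactivators. Other genes are lowered when T3 rises. In the tadpole intestine the rise of T3 at climax is followed by death of the larval epithelium, formation of adult epithelial stem cells, and growth of connective tissue and muscle. In bulk tissue of this kind, fewer cells of a type and less RNA per cell cannot be told apart. The counts carry Ensembl gene IDs only, and the gene table used here lists no such IDs, so that 0 of 19921 were paired with a symbol. The members are therefore described by their levels, 4 of them by ID, and their functions, the TR genes and the markers of intestinal cell types were not analysed here.

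Totals ranged from 20112705 to 37936503 counts per library. One library stood apart from its group, TRDKO stage 54 replicate 3. Log2 levels of the 2 pairs of libraries that contain it correlated at 0.963 and 0.964 across genes, which are not independent replicates, and those of the other 10 pairs within a group at 0.998. In the 61 members detected in TRDKO tadpoles, the median squared difference between the 2 libraries of a pair was 80.5 and 88.8 times the counting noise in the pairs with this library and 0.994 to 2.67 times in the others. It lay more than 1.5-fold from the mean of replicates 1 and 2 in 26 of these members, above in 16 and below in 10. That is 42.6% of the members and compares with 30.4% of the 10263 genes at 50 or more with a mean above 0 in every group. In any other library, 0 to 5 members lay that far from the other libraries of its group, with TRDKO replicate 3 left out of the stage 54 means. Some values that rest on the TRDKO mean at stage 54 are given with and without this library, and the others include it.

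In wild-type tadpoles the members fell by 2.01-fold to 287-fold between group means, with a median of 2.93-fold and quartiles of 2.29-fold and 6.60-fold, although 19 of the 65 were higher at stage 61 when counts were divided by library totals alone. All 3 libraries of stage 61 lay below all 3 of stage 54 in 65 of 65 members, as they did in 42.6% of the 13954 genes tested. By edgeR's quasi-likelihood test, 60 members were called lower (adjusted p under 0.05 and more than 2-fold), against 21.2% of the genes tested. Since the rule used this contrast, nothing is read from these counts. The depth of the fall fell into unequal classes. In 42 members the wild-type level at stage 61 was more than 25% of that at stage 54, in 8 it was 10% to 25%, and in 15 it was 10% or less.

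In TRDKO tadpoles the 61 detected members rose between the stages by 2.01-fold to 32.7-fold, with a median of 2.45-fold. The rise was under 3-fold in 45 of them, 3-fold to 5-fold in 14 and over 5-fold in 2. Without TRDKO stage 54 replicate 3 these counts were 38, 17 and 6. The 3 libraries of stage 61 lay above the 3 of stage 54 in all 61, as in 32.7% of the genes tested, and 60 of the 65 members were called higher by edgeR, against 12.5% of the genes tested. By the interaction test of edgeR (adjusted p alone), the stage effect was called higher in TRDKO tadpoles in 62 members, against 30% of the genes tested. Nothing is read from these counts either. Many rises lay close to the limit of the rule, as did many of the falls. In 16 members the TRDKO ratio was within 10% of the limit, in 16 the wild-type ratio was, and in 25 one or the other was. The lowest TRDKO ratio inside the rule was 2.01 and the highest outside was 1.98. The highest wild-type ratio inside was 0.498 and the lowest outside was 0.504. The lowest wild-type level at stage 54 inside was 54.7 and the highest outside was 49.7. Among genes that met the other conditions, 12 missed the wild-type limit and 37 the TRDKO limit by 10% or less. Without TRDKO stage 54 replicate 3, the TRDKO ratio stayed at 2 or above in 49 of the 61 members and was 1.64 to 1.999 in the other 12, while the median ratio was 2.56.

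**Figure D1:**
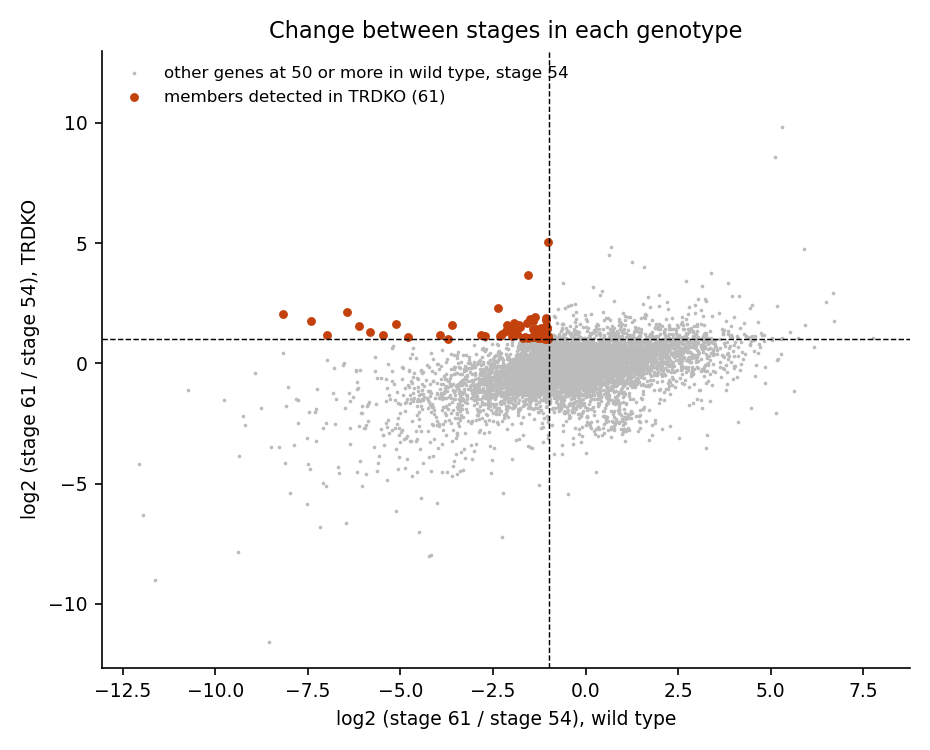
Log2 ratio of the mean normalised count at stage 61 to that at stage 54 in wild-type (x) and TRDKO tadpoles (y), 1 point per gene with a wild-type stage 54 mean of at least 50 and a mean above 0 in every group. Dashed lines mark the 2-fold limits of the rule, and many of the 61 members detected in TRDKO tadpoles (red) lie near them. The 12 that fell to 10% or less in wild-type tadpoles lie far to the left, and 2 others lie far above.

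Among members whose stages did not overlap in either genotype, the 2 with the largest fall in wild-type tadpoles were nearly silent there at stage 61. ENSXETG00000011901 had normalised counts of 405, 389 and 409 in wild type at stage 54, and 2, 4 and 1 raw counts at stage 61. The TRDKO libraries had 645, 679 and 559 at stage 54 and 2565, 2663 and 2542 at stage 61. The wild-type fall was 268-fold from the pooled counts (95% exact interval 129 to 669, counting error only). In TRDKO tadpoles the gene rose from 628 ± 61.8 to 2589.6 ± 64.2 normalised counts (SD, n = 3), 4.12-fold, or 3.91-fold without replicate 3 of stage 54. It was higher in every TRDKO library than in every wild-type library at both stages, and no library of one group overlapped another group.

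ENSXETG00000034321 also came close to 0 in wild-type tadpoles at stage 61 but was low in TRDKO tadpoles from the start. Its wild-type normalised counts were 178, 170.0 and 175 at stage 54, and it had 1, 3 and 1 raw counts at stage 61, a fall of 163-fold from the pooled counts (95% exact interval 69.2 to 506, counting error only). Its TRDKO libraries had 34.2, 39.3 and 25.1 normalised counts at stage 54 and 109, 116 and 106 at stage 61. The TRDKO rise of 3.35-fold, or 3.0-fold without replicate 3 of stage 54, brought it to 0.631 times the wild-type level of stage 54, below every wild-type library of that stage.

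The 2 members with the largest rise in TRDKO tadpoles fell only moderately in wild-type tadpoles. ENSXETG00000033423 had wild-type normalised counts of 293, 220.0 and 237 at stage 54 and 124, 140.4 and 104 at stage 61, a fall of 2.04-fold. In TRDKO tadpoles it had 154, 173 and 307 at stage 54, with replicate 3 the highest, and 6795, 7020.0 and 6889.7 at stage 61. The rise was 32.7-fold, or 42.2-fold without replicate 3, and took the gene to 27.6 times its wild-type level of stage 54. The TRDKO and wild-type libraries overlapped at stage 54 and lay far apart at stage 61.

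ENSXETG00000022768 had wild-type normalised counts of 248, 238 and 235 at stage 54 and 81.9, 83.8 and 80.3 at stage 61, a fall of 2.93-fold. By library totals alone its wild-type level at stage 61 was 0.809 times that of stage 54. The TRDKO libraries stood at 174, 176 and 165 at stage 54 and 2206, 2217 and 2100.4 at stage 61. It rose 12.7-fold there (12.4-fold without replicate 3), to 9.05 times the wild-type level of stage 54. Its TRDKO libraries were below the wild-type ones at stage 54 and above them at stage 61.

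**Figure D2:**
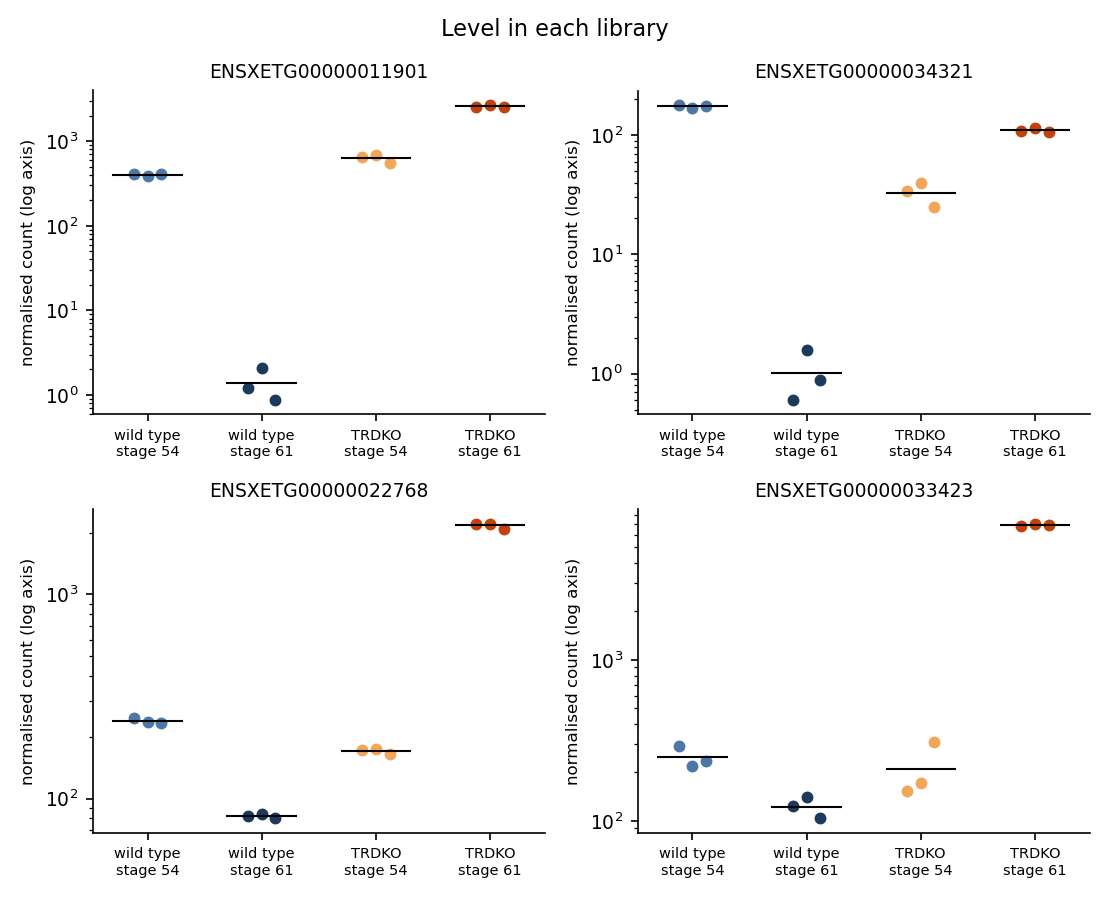
Normalised counts of the 4 members given by ID in each library (points, log axis) with the group mean of 3 libraries (line). The upper genes had 1 to 4 raw counts in each wild-type library at stage 61, and the lower genes rose 12.7-fold (left) and 32.7-fold (right) in TRDKO tadpoles.

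A part of the set was shut down almost wholly in wild-type tadpoles and went far above the larval level in TRDKO tadpoles. Of the 12 detected members with a wild-type stage 61 level at or under 10% of stage 54, 5 reached more than 5 times the wild-type stage 54 level in TRDKO tadpoles at stage 61. ENSXETG00000011901 was 1 of these 5. Their libraries spanned 79.6 to 409 normalised counts in wild type at stage 54 and 0.883 to 6.68 at stage 61, and 441 to 2663 in TRDKO tadpoles at stage 61. The group means at stage 61 differed between the genotypes by 77.96-fold to 1854-fold, ratios that rest on 1 to 12 raw counts in each wild-type library. In all 5 the TRDKO mean at stage 54 was above the wild-type mean, by 1.57-fold to 3.46-fold. That follows from the level that set the 5 apart together with their rises of at most 4.42-fold. The rule sets no upper limit on the rise. In 2 of these 5 genes replicate 3 was far lower than replicates 1 and 2 (289, 282 and 54.1 in one, 232, 214 and 25.1 in the other) and below the wild-type mean. Without it, the mean of replicates 1 and 2 was above wild type in all 5.

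In these 5 genes the order of the group means was the same, with wild-type stage 61 lowest, then wild-type stage 54, TRDKO stage 54 and TRDKO stage 61. This order too follows from the rule and the level that set the 5 apart, once their rises were at most 4.42-fold, which the rule did not require. The other 7 detected members that fell to 10% or less ended at lower levels in TRDKO tadpoles. They were below the wild-type level in TRDKO tadpoles at stage 54, at 0.0936 to 0.635 times, and reached 0.210 to 1.63 times the wild-type stage 54 level at stage 61. That these 7 began below it follows from the rule, since a rise of 2-fold or more to at most 1.63 times must start lower. In them too the TRDKO level at stage 61 was above the wild-type one, by 7.59-fold to 108-fold. The 108-fold ratio rests on 1, 3 and 1 raw counts in the wild-type libraries. The lowest values, 0.0936 and 0.210, come from 1 gene near the limit of detection. It had 4, 4 and 8 raw counts in TRDKO tadpoles at stage 54 and 10, 11 and 15 at stage 61.

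**Figure D3:**
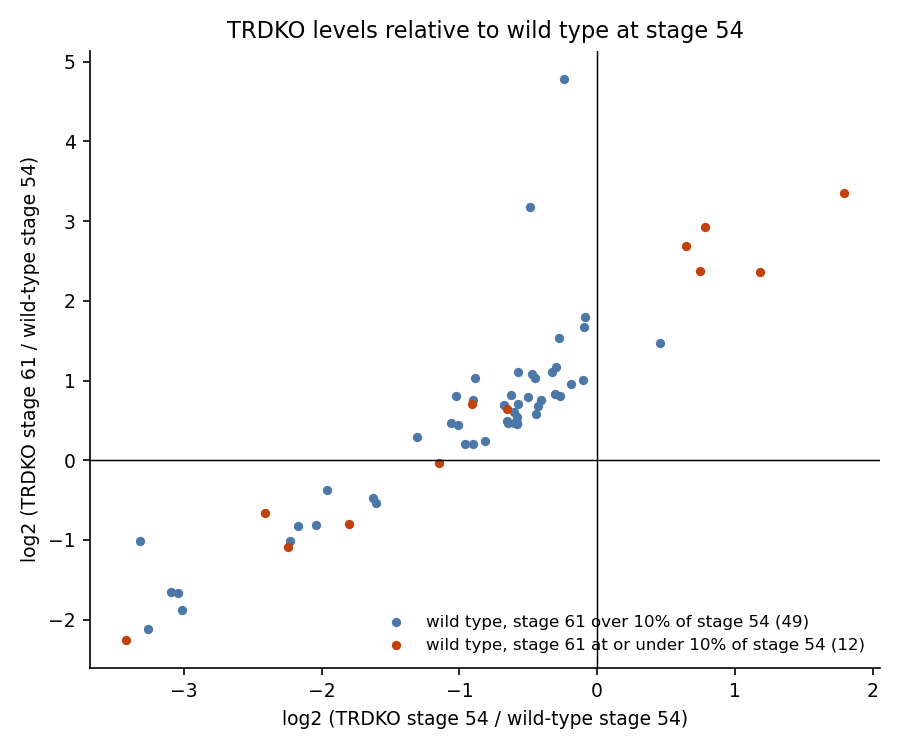
TRDKO level at stage 54 (x) and at stage 61 (y), each as the log2 ratio to the wild-type mean of stage 54, for the 61 members detected in TRDKO tadpoles. The 5 points far to the upper right are the members that fell to 10% or less in wild-type tadpoles (red) and passed 5 times the larval wild-type level in TRDKO tadpoles.

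Another part of the set consisted of very abundant genes. There were 14 members at 10000 or more normalised counts in wild-type tadpoles at stage 54, which is 21.5% of the members, while 520 genes (5.06% of those at 50 or more) were as high. Of the 14, 12 kept more than 25% of their level in wild-type tadpoles. In these 12 the wild-type ratio of stage 61 to stage 54 lay between 0.341 and 0.498 (0.810 to 1.18 by library totals alone), and the TRDKO ratio between 2.03 and 2.80. Their TRDKO level was 0.568 to 0.830 times the wild-type level at stage 54 and 3.0 to 4.24 times at stage 61, or 0.853 to 1.25 times and 1.895 to 2.68 times by library totals alone. The ranges of the stage ratios were partly set in advance, by the 2-fold limits of the rule and by taking members above 25%. Such ratios were not particular to abundant genes. Of all 65 members 42 kept more than 25% in wild type, and 45 of the 61 detected ones rose under 3-fold in TRDKO tadpoles. The most abundant member had 143377, 143642 and 147679 normalised counts in wild type at stage 54 and 49519.7, 48145 and 50748 at stage 61. In TRDKO tadpoles it had 84137, 85753 and 77090.2 at stage 54 and 173700, 173496 and 167672 at stage 61. It ranked 20 among all genes in TRDKO tadpoles at stage 61, and 11 members were among the 100 highest genes there, against 4 in wild-type tadpoles at stage 54. The rule asks for a TRDKO rise to stage 61, so the larger number there follows in part from the choice. Ranks are by normalised count, with no correction for gene length. Of the 12 members that fell below 2-fold without TRDKO stage 54 replicate 3, 5 were at 10000 or more.

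The remaining 2 of the 14 fell more deeply, and replicate 3 departed most from its group in them. One had 62843, 62176 and 63349 normalised counts in wild type at stage 54 and 4998, 5099 and 5219 at stage 61. Its TRDKO values were 19892 and 20002 in replicates 1 and 2 of stage 54 but 60524 in replicate 3, and 103985, 100981 and 102525 at stage 61. Its TRDKO rise was 3.06-fold with replicate 3 and 5.14-fold without it. The other had 46863, 46471 and 45481 normalised counts in wild type at stage 54 and 9191, 9578 and 9159.7 at stage 61. In TRDKO tadpoles it had 26716, 26798 and 68431 at stage 54 and 89743, 89013 and 90338 at stage 61, a rise of 2.21-fold with replicate 3 and 3.35-fold without it. In both genes all TRDKO libraries of stage 61 were above all others.

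At stage 54, before the climax, the TRDKO mean was below the wild-type mean in 55 of the 61 detected members and above it in 6, or in 5 without replicate 3. This too rested on the scaling, since with library totals alone it was below in 33 and above in 28, with a median ratio of 0.974. With size factors the median ratio was 0.648, with quartiles of 0.403 and 0.796. All TRDKO libraries lay below all wild-type ones in 45 of the 61, as in 33.2% of the genes tested, and above them in 3, as in 34.9%. By edgeR, 21 of the 65 members were called lower (12% of the genes tested), of which 17 were among the 61, and 2 higher (21.7%). The rule asks for a high wild-type and a low TRDKO level at this stage, so the direction follows in part from the choice of members.

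At stage 61 the TRDKO level was above the wild-type level in 59 of the 61 detected members in every library, as in 38.8% of the genes tested, and the median ratio was 4.47. By edgeR, 56 of the 65 members were called higher, against 14.1% of the genes tested, and 3 were called lower, against 20.1%. None of these 3 was among the 61 (0 of 61 called lower). The rule asks for a low wild-type and a high TRDKO level at stage 61, so this direction too follows in part from the choice. With library totals alone the TRDKO mean was above in 58 of the 61, with a median ratio of 2.83. With size factors the ratio was under 2 in 5 of the 61 members and under 1 in 2. The lower of these 2 had 301, 305 and 320.4 normalised counts in wild type at stage 61 and 198, 221 and 214 in TRDKO tadpoles, which did not overlap. It had stood at 673, 638 and 698 in wild type at stage 54, and at 64.3, 63.0 and 117 in TRDKO tadpoles, so that its TRDKO rise began from a very low level. The other had 182, 202 and 192 in wild-type tadpoles and 163, 190.0 and 176 in TRDKO tadpoles at stage 61, which overlapped.

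How far the TRDKO rise reached was compared with the larval level, the wild-type mean at stage 54, to which the rule ties the TRDKO level of stage 61 only indirectly. Both genotype and stage differ in this comparison. The ratio ran from 0.210 to 27.6, with a median of 1.57 and quartiles of 0.972 and 2.05. The TRDKO level was more than 1.5-fold above the larval wild-type level in 32 members, within 1.5-fold of it in 17, and more than 1.5-fold below it in 12. All TRDKO libraries were above all wild-type ones in 45 members, as in 46.9% of the genes tested, and below them in 15, as in 41.5%. By edgeR, 18 of the 65 members were called higher (28.3% of the genes tested) and 11 lower (22.3%), 29 in all (50.5%). Of the 11, 7 were among the 61. With library size alone 50 members were called, and the 3 classes held 45, 11 and 5 members, with a median ratio of 2.35. The median log2 fold change of the 61 members in the TMM-scaled fit was 0.66, against 0.15 over all genes tested.

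The 12 members more than 1.5-fold below the larval level stood at 0.0936 to 0.287 times the wild-type level in TRDKO tadpoles at stage 54. That they were low there follows from the rule, since a TRDKO level that is below the larval level after a rise of 2-fold or more must have started lower still. Their TRDKO rise was 2.01-fold to 4.94-fold, with a median of 2.33-fold. The rule also leaves only TRDKO stage 61 or wild-type stage 54 to be the highest of the 4 groups, and only wild-type stage 61 or TRDKO stage 54 to be the lowest. Within these limits, TRDKO stage 61 was highest in 45 of the 61 detected members and wild-type stage 54 in 16, and wild-type stage 61 was lowest in 54 and TRDKO stage 54 in 7.

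**Figure D4:**
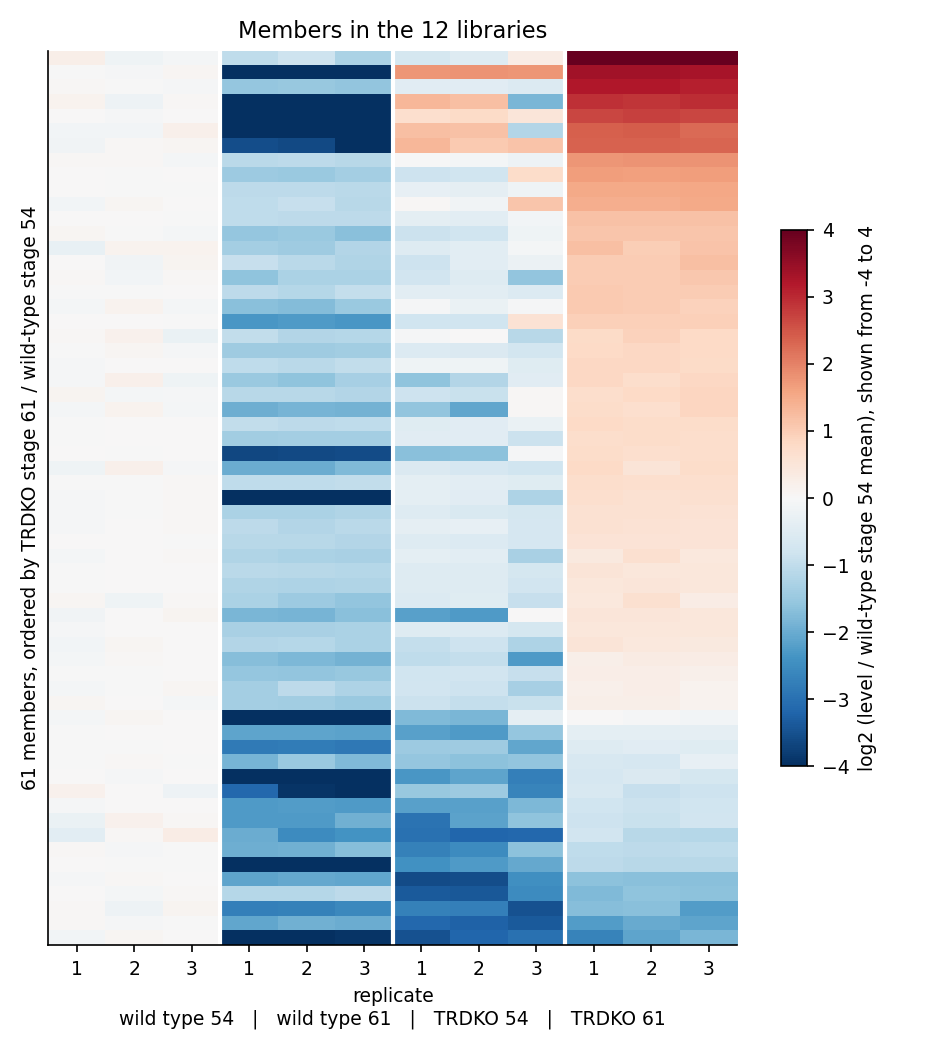
Log2 ratio of each library's normalised count to the wild-type stage 54 mean, with 1 added to both, for the 61 members detected in TRDKO tadpoles (rows, ordered by their TRDKO stage 61 level relative to wild-type stage 54). Colours are limited to -4 and 4. The 3 libraries of a group look alike except for TRDKO stage 54 replicate 3, and 45 rows are highest in TRDKO stage 61.

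The remaining 4 of the 65 members had 3 counts or fewer in every TRDKO library, so that the TRDKO condition was met without a rise. The highest of them had 295, 335 and 331 normalised counts in wild type at stage 54 and 21.2, 17.8 and 15.9 at stage 61. In TRDKO tadpoles it had 0, 0 and 1 raw counts at stage 54 and 0, 2 and 1 at stage 61. The next had 196, 208 and 152 normalised counts in wild type at stage 54 and 78.9, 73.9 and 71.5 at stage 61, and 0 counts in all 6 TRDKO libraries. The other 2 had wild-type means of 70.5 and 63.0 at stage 54 and 0.349 and 6.03 at stage 61, and also 0 counts in every TRDKO library. The first of these had 0, 2 and 0 raw counts in wild type at stage 61, a fall of 167-fold from the pooled counts (95% exact interval 45.2 to 1390.0, counting error only). A count of 0 allows up to 3 counts, or 2.29 to 3.93 normalised counts in a TRDKO library (counting error only). These 4 genes were near or under the limit of detection in TRDKO tadpoles at both stages, and are left out of every statement on the 61.

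The direction of the wild-type change rested on how libraries were scaled in 19 of the 65 members, and the genotype difference at stage 54 depended on scaling too. Together the 65 members took 2.31% ± 0.0309 (SD, n = 3) of all counts in wild type at stage 54 and 2.13% ± 0.0178 at stage 61. In TRDKO tadpoles they took 2.32% ± 0.0110 at stage 54 and 5.31% ± 0.0263 at stage 61. Most of these shares came from the 12 abundant members with the shallower fall. Those took 1.91% and 1.96% in wild type at stages 54 and 61, and 1.94% and 4.23% in TRDKO tadpoles. The members under 10000 normalised counts took 0.138% and 0.0963% in wild type, and 0.118% and 0.393% in TRDKO tadpoles. Size factors did not follow library totals: wild-type libraries had factors of 0.511 to 0.741 at stage 54 and 1.13 to 1.91 at stage 61, with totals of 21418372 to 31110136 and 20112705 to 33588231 counts. With counts divided by library totals alone, 46 of the 65 members were lower in wild-type tadpoles at stage 61, 19 were higher, and 20 were at or under 50% of their stage 54 level. The 20 included all 15 members that had fallen to 10% or less. The 12 abundant members with the shallower fall then had ratios of 0.810 to 1.18, and 8 of them were above 1. The TRDKO rise was nearly the same under both scalings, with a ratio of 2 or more in 60 of the 61 detected members by totals alone. Library totals also moved the typical gene, whose median log2 fold change in wild-type tadpoles went from 0.13 to 1.33 over the genes tested. Relative to that median the 61 detected members lay at -1.63 in both fits, with TMM and with library totals. A change of scaling moves all genes by nearly the same amount, so these values had to agree and nothing is read from that. The genes tested had to meet no minimum in wild type at stage 54. Among genes at 50 or more there, the median wild-type ratio was 0.814 with size factors and 1.93 by library totals.

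**Figure D5:**
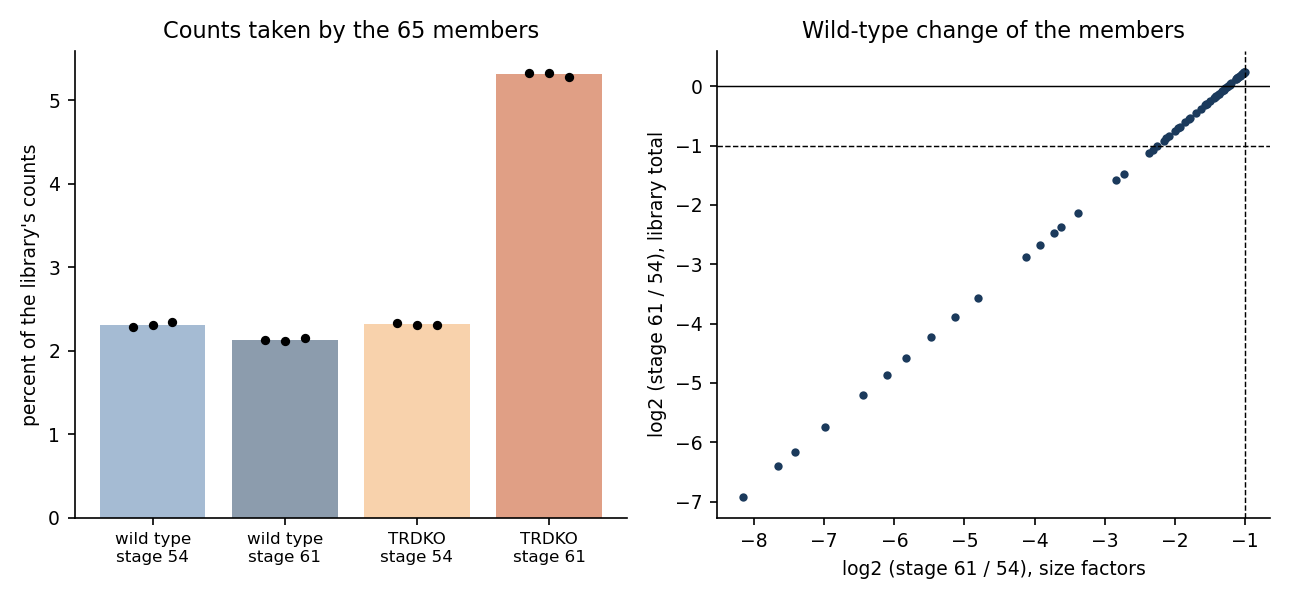
Left, percent of each library's counts taken by the 65 members, with bars for the mean of 3 libraries and points for the libraries: TRDKO stage 61 stands at 5.31% and the other groups at 2.13% to 2.32%. Right, log2 ratio of stage 61 to stage 54 in wild-type tadpoles for each member with size factors (x) and with library totals alone (y), where 19 members lie above 0 (dashed lines, 2-fold).

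The rule was also applied to 2 libraries per group, and the genes found were read in the libraries left out. In groups other than TRDKO stage 54, the median squared difference of a pair was 1.45 to 2.67 times the counting noise in the members. The median SD there was 2.55% to 5.17% of the group mean. In those groups neither the direction nor the size of the change could differ much, except near the 2-fold limits. The counts are therefore given as a description, and do not replicate the set. Of the genes found without the libraries numbered 1 and detected in TRDKO tadpoles, 41 of 69 passed 2-fold in both genotypes in those libraries, as did 0.732% of the genes at 50 or more. Without the libraries numbered 2 it was 47 of 67, against 0.848%. Without the libraries numbered 3, which include the TRDKO stage 54 library that stood apart, it was 34 of 77, against 1.33%. Both directions, at any size, held in 69 of 69, 67 of 67 and 64 of 77 in this order. Of the genes at 50 or more, 19.1%, 19.0% and 19.5% had both directions. The median TRDKO ratio in the left-out libraries was 2.26, 2.34 and 1.91 in this order. The numbers are those of the labels, and whether they pair libraries across groups is not known.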

How the data were processed

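RNA of whole intestine was sequenced at stages 54 and 61 in both genotypes, with 3 libraries per group. Per the labels and the paper, the authors mapped reads with STAR 2.6.1c to the Ensembl genome and counted them per gene with featureCounts 1.6.3. The strand setting and the treatment of reads that match several genes are not given in the sources used here, so overlapping genes and near-identical copies are uncertain. The deposited values are raw counts for 19921 Ensembl IDs, with no normalization.

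Groups, stages and replicate numbers came from the labels. The labels do not say that libraries came from separate animals, although the paper calls them biological replicates, and tests then measure the spread between these libraries. Members were chosen with median-of-ratios size factors from the 12983 genes with counts in all 12 libraries. The members and lists were chosen with earlier results of these data known. All 12 libraries entered one edgeR 4.0.16 quasi-likelihood fit in R 4.3.3 (filterByExpr, TMM, a mean per group) of 13954 genes, and all 65 members passed its filter. Calls used a Benjamini-Hochberg adjusted p under 0.05 and more than 2-fold, and for the difference between the stage effects the adjusted p alone. The fit was tested on simulated data in which 200 genes changed 8-fold in TRDKO stage 61 alone. It recovered 190 to 196 of them in the comparisons that use this group, with 1 to 9 false calls. The simulation held no changes near 2-fold and no library apart from its group, so it does not speak to the calls on the members. Medians of log2 fold changes from the fits use the 61 members with more than 3 counts in a TRDKO library. The median wild-type fall between group means uses all 65.

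The genes given by ID were the 2 largest falls in wild-type and the 2 largest rises in TRDKO tadpoles, by group means, among members without overlap between stages in either genotype, which leaves out the members near 0 in TRDKO tadpoles. Gene lists and cell type markers planned by symbol, and sequences, were not used here, since the IDs were not paired with names. Exact intervals are Clopper-Pearson and cover counting error alone, since reads without molecular identifiers are not independent molecules. Alternatives were DESeq2 1.42.0, no filter, library size alone, RLE size factors, no fold threshold, a replicate block, each library left out, and other limits of the rule.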

Additional observations from a re-analysis of the deposited data

Results flagged for a closer look

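The effect of stage differed between the genotypes, being higher in TRDKO tadpoles, in 62 of the 65 members by the interaction test (edgeR's quasi-likelihood test, adjusted p under 0.05), against 30% of the 13954 genes tested. The members were chosen for opposite changes in the 2 genotypes, so this count describes the choice. The median difference of the 61 detected members was 3.09 on the log2 scale, against -0.18 over all genes tested. The 62 were made up of the 61 detected members and 1 of the 4 members with 3 counts or fewer in every TRDKO library. With each library left out in turn, TRDKO stage 54 replicate 3 included, 61 or 62 members were called.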

How the results depend on the processing

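Scaling, the limits of the rule and the fold threshold of the calls moved the results. The rule found 15 genes with library size alone, 292 with a 1.5-fold limit and 11 with a 3-fold limit, but 60 with TMM-scaled totals, 89 and 56 with a minimum of 25 and 100 in wild-type stage 54, and 61 without the members near 0 in TRDKO tadpoles, an alternative chosen after seeing the data. Leaving out 1 library, or 1 replicate number in all groups, it found 62 to 81. Without TRDKO stage 54 replicate 3 it found 74, of which 53 were among the 65 members. With library size alone, 20 members were called lower at stage 61 in wild type, and 50 were called different between TRDKO stage 61 and wild-type stage 54 (main result, 29). Without a fold threshold 59 were called in the latter comparison, and 49 were called lower in TRDKO at stage 54 (main result, 21). Library size alone moved the median log2 fold change of the members to -0.30 between stages in wild type, 1.89 for the difference of the stage effects, -0.040 for TRDKO against wild type at stage 54, 1.495 at stage 61 and 1.23 for TRDKO stage 61 against wild-type stage 54. The main values were -1.51, 3.09, -0.61, 2.13 and 0.66. RLE size factors gave -1.55 in wild type. These shifts follow the all-gene median, which moved by as much, as it must when a change of scaling moves all genes nearly alike.

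With single libraries left out, 59 to 65 members were called lower at stage 61 in wild type, 49 to 61 higher in TRDKO, 21 to 24 lower in TRDKO at stage 54, 56 to 56 higher at stage 61 and 27 to 29 different between TRDKO stage 61 and wild-type stage 54. The medians ranged from -1.62 to -1.50, 1.26 to 1.35, 2.89 to 3.25, -0.64 to -0.57, 2.07 to 2.29 and 0.62 to 0.68 in the order wild-type stages, TRDKO stages, their difference, genotypes at stage 54, genotypes at stage 61, and TRDKO stage 61 against wild-type stage 54. With the replicate block, 60, 60, 62, 25, 56 and 30 members were called in the same order, and no count moved by over 1.5 times. Same-numbered libraries did not deviate together (correlations of deviations -0.07 to 0.07 in 18 pairs). This could hardly show pairing, since libraries of a group, TRDKO stage 54 replicate 3 apart, differed by little more than counting noise. Their median squared difference was 1.17 to 1.90 times that noise over all genes compared. Whether the numbers pair the libraries is therefore not known. DESeq2 and the fit without a filter moved no count of calls by over 1.5 times. The cause of the dependence on scaling was not tested. The limit of 3 counts bounds what is known of the 4 members near 0 in TRDKO tadpoles.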
